A study of Mus musculus with 4 samples.

Results

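Cells that divide make the proteins of mitosis late in the cell cycle, and 36 genes for such proteins were followed here in single spleen cells of lymphoma-bearing mice. The 36 genes were taken from a list of genes that peak in G2 and M phase, the stages just before and during cell division, and all of them were among the 17252 genes of the count table. BALB/c mice had been given 10000 BCL1 cells, a B cell lymphoma of this strain, and their spleens were collected on day 13. Mice received isotype control antibody, anti-CD20 on day 4, anti-CD27 on days 5 to 8, or both antibodies on those days (the combination), as the sample labels give it, and the methods for the single-cell work name earlier antibody days. CD20 is the B cell antigen that anti-CD20 binds, and CD27 is a receptor that costimulates T cells when the anti-CD27 antibody engages it. Each treatment was 1 library, the number of mice behind a library was not given in the sources used here, and the cells used as the isotype control carried the name PBS in the table.

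The genes work in sequence. Cyclin A2 and the B cyclins activate the kinase CDK1, which drives cells into mitosis, where chromosomes condense, attach to the spindle through kinetochores and are moved by kinesin motors. The anaphase promoting complex (APC/C), a ubiquitin ligase, then destroys the cyclins so that the chromosomes separate and the cell splits. Because these transcripts accumulate in G2 and decay after division, they are widely used as a mark of dividing cells, for example Mki67, which encodes the Ki-67 antigen. In the spleen, germinal center B cells, activated T cells and the precursors of red cells and granulocytes are known to divide.

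RNA was measured by Drop-seq, in which each cell shares a droplet with a barcoded bead and each captured transcript is counted once by its unique molecular identifier (UMI). Of 3198 barcodes, 1770 had 300 to 3000 detected genes and were kept, 340 in the isotype control, 501 after anti-CD20, 497 after anti-CD27 and 432 after the combination. These cells held 440710, 939565, 908930 and 917486 UMIs, with medians of 1031, 1379, 1209 and 1396 UMIs per cell, so values of the isotype control were the least precise. Levels are given as CPM, the UMIs of a gene or of the 36 genes together per 1000000 UMIs of the same library or class of cells. Treatments were not tested against each other, because the cells of a library do not replicate its treatment. Intervals are at 95% and cover counting error only, neither the variation between mice nor that between cells, and are too narrow where many UMIs lie in 1 cell. No kept barcode was found in more than 1 library.

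The 36 genes together were lowest in the isotype control and reached similar levels after anti-CD20 and after the combination. Their summed level was 4554 CPM in the isotype control (2007 UMIs, exact Poisson interval 4357 to 4758), 6332 CPM after anti-CD20 (5949 UMIs, 6172 to 6495), 5181 CPM after anti-CD27 (4709 UMIs, 5034 to 5331) and 6265 CPM after the combination (5748 UMIs, 6104 to 6429). The intervals of anti-CD20 and the combination overlapped, and those of the other two libraries lay below them. The log2 ratio was -0.02 for the combination over anti-CD20 (exact conditional interval -0.07 to 0.04), 0.19 for anti-CD27 over the isotype control (0.11 to 0.26), 0.48 for anti-CD20 over the isotype control (0.40 to 0.55) and 0.27 for the combination over anti-CD27 (0.22 to 0.33). These comparisons share libraries and are not independent of each other. With library totals scaled by TMM factors the ratio was 0.069 for the combination over anti-CD20 and 0.35 for anti-CD27 over the isotype control.

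The share of cells that carried several of these transcripts followed the same order of libraries except for anti-CD20 and the combination. After each cell was thinned to 400 UMIs, UMIs of at least 2 different members were found in 14.9% of 335 cells of the isotype control (exact Clopper-Pearson interval 11.3% to 19.2%), 22.2% of 496 cells after anti-CD20 (18.6% to 26.1%), 17.8% of 493 cells after anti-CD27 (14.6% to 21.5%) and 25.4% of 429 cells after the combination (21.4% to 29.8%). The combination exceeded anti-CD20 by 3.23 percentage points (Newcombe interval -2.25 to 8.75) and anti-CD27 exceeded the isotype control by 2.92 points (-2.32 to 7.91), and both intervals include 0. Without the upper limit on genes the first difference was 6.24 points (0.687 to 11.8), an interval above 0. Before thinning the shares were 28.8%, 46.5%, 38.6% and 52.5%. Thinning left out 5, 5, 4 and 3 cells with fewer than 400 UMIs.

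All 36 members had at least 10 UMIs in each pair of libraries. None of the 36 was at least 2-fold higher or lower in the combination than after anti-CD20, where 6.39% of 10365 genes were at least 2-fold higher and 4.62% at least 2-fold lower (log2 ratio of CPM plus 10, genes with at least 10 UMIs in the pair). The median log2 ratio of the members was 0.10 against -0.06 for all genes tested. After anti-CD27, 2 of 36 members, Cdk1 and Ube2c, were at least 2-fold higher than in the isotype control and none lower, with 4.97% and 3.58% of all genes, and the medians were 0.13 and -0.09. After anti-CD20, 2 of 36 members, Cenpf and Top2a, were at least 2-fold higher than in the isotype control and none lower, with 2.16% and 1.47% of all genes, and the medians were 0.34 and -0.05. Between the combination and anti-CD27 none passed 2-fold in either direction, with 1.44% and 1.76% of all genes, and the medians were 0.15 and -0.01.

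**Figure D1:**
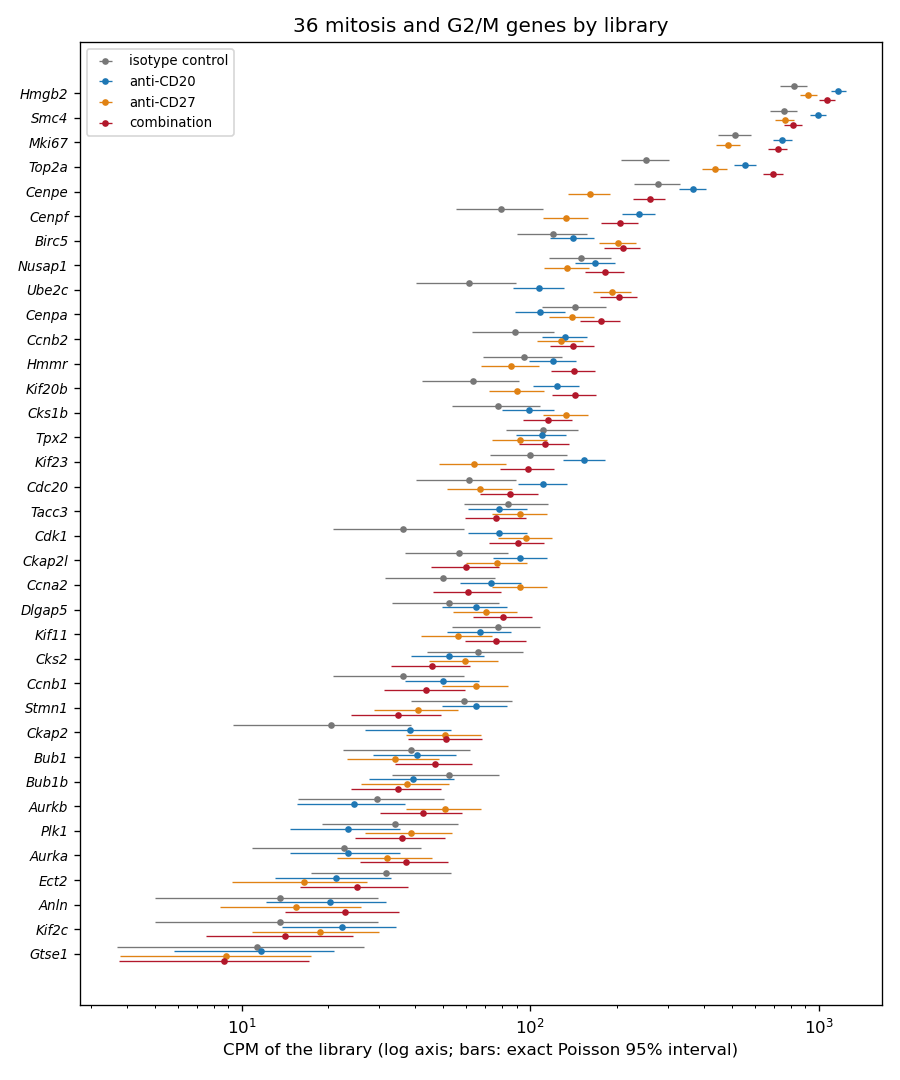
CPM of each of the 36 genes (vertical axis, by UMIs over all cells) in the 4 libraries, on a log axis, with exact Poisson 95% intervals as bars. Hmgb2, Smc4, Mki67 and Top2a lie above the other genes, and Ube2c, Cdk1 and Cenpf are lowest in the isotype control.

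Among the cyclins, their kinase and its small partners, the isotype control was low for most. Cdk1, the kinase itself, was at 36.3 CPM in the isotype control, 77.7 after anti-CD20, 96.8 after anti-CD27 and 90.5 after the combination. The isotype interval (20.8 to 59.0) lay below the other libraries' values, and the log2 ratio of anti-CD27 over the isotype control was 1.42 (0.64 to 2.28). Ccna2, cyclin A2, was at 49.9, 73.4, 92.4 and 61.0 CPM in the same order of libraries, and was lower in the combination than after anti-CD27 (log2 ratio -0.60, -1.11 to -0.09). Ccnb1 and Ccnb2, the B cyclins, ranged from 36.3 to 64.9 CPM and from 88.5 to 141 CPM. Cks1b, a CDK-binding subunit, ranged from 77.1 to 133 CPM and was highest after anti-CD27. Cks2, its relative, ranged from 45.8 to 65.8 CPM with overlapping intervals in all 4 libraries, and its last 500 bases also match 3 other genes, so its counts are less certain. Ccna2 overlaps Exosc9 on the other strand.

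The mitotic kinases had few UMIs. Aurka and Aurkb (Aurora kinases of the spindle poles and of the centromere), Plk1 (Polo-like kinase) and Bub1 and Bub1b (kinases of the spindle checkpoint) had 95 to 129 UMIs each over all cells, and their levels lay between 22.7 and 52.2 CPM in every library. Aurkb was at 24.5 CPM with anti-CD20 alone and 42.5 CPM with both antibodies (log2 ratio 0.80, 0.02 to 1.61). The other kinases had ratios whose intervals included 0 in both comparisons that add anti-CD27.

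The partners of the APC/C differed from each other. Ube2c, the enzyme that supplies ubiquitin to the complex, was at 61.3 CPM in the isotype control, 107 after anti-CD20, 192 after anti-CD27 and 203 after the combination. It was higher in both libraries with anti-CD27, with log2 ratios of 1.65 for anti-CD27 over the isotype control (1.06 to 2.29) and 0.92 for the combination over anti-CD20 (0.56 to 1.28). Cdc20, which activates the complex at anaphase, was at 61.3, 111, 67.1 and 85.0 CPM, highest after anti-CD20, and its ratios were 0.13 (-0.54 to 0.84) and -0.38 (-0.82 to 0.06). Both genes overlap a protein-coding gene on the other strand (Tnnc2 and Elovl1), and whether the counting used strand was not stated, so reads of these partners could be included.

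At the centromere and kinetochore, Cenpe showed the opposite pattern to Ube2c. Cenpe, a kinesin-like motor that links chromosomes to the spindle, was at 277 CPM in the isotype control, 366 after anti-CD20, 161 after anti-CD27 and 259 after the combination. It was lower in both libraries with anti-CD27, with log2 ratios of -0.79 for anti-CD27 over the isotype control (-1.14 to -0.43) and -0.50 for the combination over anti-CD20 (-0.74 to -0.25). Cenpf, a kinetochore protein, was at 79.4, 238, 133 and 205 CPM, and its isotype control interval (55.3 to 110) lay below the other libraries. Cenpa, the histone H3 variant of centromeres, was at 143, 109, 140 and 176 CPM, with a ratio of 0.69 for the combination over anti-CD20 (0.33 to 1.07). The end of Cenpf matches sequence in 27 other genes, which makes its count less certain.

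Chromosome structure and surface proteins gave the most UMIs: 4 genes held 52.6% of all member UMIs. Hmgb2, a DNA-bending chromosomal protein, was at 819, 1169, 922 and 1071 CPM in the 4 libraries in the same order. Smc4, a subunit of condensin, was at 758, 994, 762 and 816 CPM, and was lower in the combination than after anti-CD20 (log2 ratio -0.28, -0.42 to -0.14). Mki67, which coats mitotic chromosomes, was at 513, 749, 486 and 723 CPM. Its level was higher in both libraries with anti-CD20, and adding anti-CD27 left it within counting error (log2 ratio -0.08, -0.31 to 0.16, without anti-CD20, and -0.05, -0.21 to 0.10, with it). Top2a, the topoisomerase that untangles chromosomes, was at 252, 556, 436 and 696 CPM, the only one of the 4 whose combination library was above the anti-CD20 library beyond counting error (log2 ratio 0.33, 0.16 to 0.50). Birc5, survivin of the chromosomal passenger complex, was at 120, 140, 201 and 209 CPM, higher in both libraries with anti-CD27 (ratios 0.74, 0.30 to 1.21, and 0.57, 0.25 to 0.91).

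Many G2/M genes carry a cell cycle homology region (CHR), read by DREAM and B-MYB complexes, near CCAAT boxes, read by NF-Y, in their promoters. In the 250 bases before the RefSeq start (GRCm38.p6, the same build as the mm10 genome of the alignment), 30 of 36 members had a promoter entry. A CHR, searched as TTTGAA or TTCGAA on both strands, was present in 14 of these 30 (46.7%) against 19.6% of all 27025 genes with an entry. A gene with several promoter entries was counted if any of them qualified. CCAAT, searched on both strands, was present in 24 (80%) against 37.5%, at least 2 CCAAT motifs in 18 (60%) against 11.5%, and both kinds of motif in 13 (43.3%) against 7.0%. Of the S phase list 13.6% of 44 matched genes held both kinds, and of other mitosis genes 30.8% of 39. The 3 promoters of the members with the most UMIs among those with a CHR are shown to let the spacing be seen, each 5′ to 3′ on the gene's strand, with the motifs of both kinds in capitals on either strand and no overlap between the 2 kinds. They lie at chr8:57511593-57511842 (plus strand, Hmgb2), chr7:135716380-135716629 (minus strand, Mki67) and chr11:99024190-99024439 (minus strand, Top2a).
Hmgb2: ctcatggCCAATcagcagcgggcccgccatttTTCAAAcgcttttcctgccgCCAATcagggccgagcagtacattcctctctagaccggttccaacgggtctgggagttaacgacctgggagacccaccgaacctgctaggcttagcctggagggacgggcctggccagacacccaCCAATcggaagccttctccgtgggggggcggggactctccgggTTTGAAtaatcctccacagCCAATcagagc
Mki67: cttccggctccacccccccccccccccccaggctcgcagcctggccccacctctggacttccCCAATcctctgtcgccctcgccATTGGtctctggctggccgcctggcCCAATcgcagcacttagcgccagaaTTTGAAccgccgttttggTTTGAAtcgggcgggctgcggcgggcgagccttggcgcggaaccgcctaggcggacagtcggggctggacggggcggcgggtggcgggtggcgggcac
Top2a: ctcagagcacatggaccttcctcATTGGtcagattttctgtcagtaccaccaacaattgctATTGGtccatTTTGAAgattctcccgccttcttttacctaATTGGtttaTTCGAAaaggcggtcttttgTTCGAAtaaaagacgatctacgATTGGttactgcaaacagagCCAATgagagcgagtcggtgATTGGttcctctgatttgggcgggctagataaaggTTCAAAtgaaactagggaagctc
The end of the Hmgb2 transcript matches 3 other genes, which makes its count less certain too. In all, 10 of the 36 members had such a match in their last 500 bases, Mki67, Kif11, Tpx2 and Stmn1 among them. A protein-coding gene on the other strand overlapped 5 members, Nusap1 and Tacc3 among them. The Hmgb2 window held 2 CHR and 4 CCAAT motifs, the Mki67 window 2 and 3, and the Top2a window 4 and 6. A match of letters does not show that a factor was bound.

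Kinesins and other spindle proteins were mixed. Kif23, a motor needed at the midbody, was at 99.8, 154, 63.8 and 98.1 CPM and, like Cenpe, was lower in both libraries with anti-CD27 (log2 ratios -0.65, -1.24 to -0.05, and -0.65, -1.05 to -0.26). Kif20b, a motor of cytokinesis, was at 63.5, 123, 90.2 and 143 CPM. Kif11, the motor that separates the spindle poles, ranged from 56.1 to 77.1 CPM, and Kif2c, a depolymerase of microtubules with 57 UMIs in all, from 13.6 to 22.4 CPM. Nusap1, Tpx2, Hmmr and Tacc3, proteins of spindle assembly, lay between 76.3 and 182 CPM in every library, and Dlgap5, Ckap2l and Ckap2, which bind spindle microtubules, between 20.4 and 92.6 CPM. Stmn1, stathmin, a microtubule regulator, was at 64.9 CPM with anti-CD20 alone and 34.9 CPM with both antibodies (log2 ratio -0.90, -1.56 to -0.26). Gtse1, a microtubule-binding protein, and the cytokinesis genes Anln and Ect2 had 32, 60 and 72 UMIs and overlapping intervals in all libraries.

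The similar library totals came from different cells. Cells of the 4 libraries were clustered together without any cell cycle gene among the variable genes, and 12 of 14 clusters were named from marker genes. Class names were made anew here and need not match those of the study, and cells of the lymphoma were not told apart from the host's B cells. Germinal center B-like cells, led by Rgs13 and Mybl1, numbered 44 in the isotype control, 109 after anti-CD20, 1 after anti-CD27 and 0 after the combination, where a count of 0 allows up to 3 of 432 cells. They held 56.6% of all member UMIs in the isotype control and 67.4% with anti-CD20 alone (interval 66.2% to 68.6%), from 12.9% and 21.8% of the cells. The anti-CD20 share was 13.1% when cells were classed singly by their own marker genes and 76.2% with cell cycle genes among the variable genes, both far outside the counting interval. Effector CD8 T-like cells, led by Ccl4, Nkg7, Ccl3, Ccl5 and Gzmb, numbered 1, 9, 49 and 44, and held 0.299%, 0.874%, 22.1% and 24.7% of the member UMIs. The last of these was 10.3% and 28.9% under the same alternatives.

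In the libraries with anti-CD27 no single class held a majority. After anti-CD27 the member UMIs lay in effector CD8 T-like cells (22.1%), erythroid-like cells (16.9%), granulocyte-like cells (15.6%), B-like cells (15.2%), an unnamed cluster led by Mcpt8 (11%) and T-like cells (9.66%). After the combination they lay in effector CD8 T-like cells (24.7%), the Mcpt8-led cluster (16.6%), erythroid-like cells (15.3%), granulocyte-like (11.4%), dendritic-like (11.3%), T-like (10.9%) and macrophage/monocyte-like cells (7.90%). B-like cells held 0.104% after the combination, where 3 cells of this class were left.

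**Figure D2:**
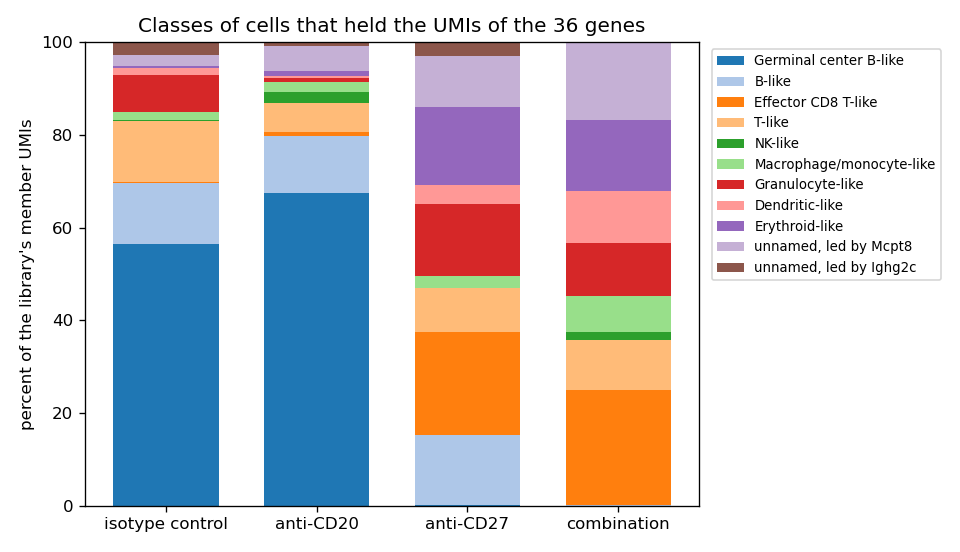
Percent of each library's member UMIs (vertical axis) held by each class of cells, stacked to 100% for the 4 libraries. Germinal center B-like cells fill 56.6% and 67.4% of the isotype control and anti-CD20 bars and are all but absent from the other bars, where effector CD8 T-like, erythroid-like and myeloid cells take their place.

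The barcodes above the upper limit of 3000 genes also held many of these transcripts. There were 2 such barcodes in the isotype control, 5 after anti-CD20, 14 after anti-CD27 and 30 after the combination, all of which had UMIs of at least 5 different members. They held 19.8%, 17.2%, 32.8% and 44.4% of each library's member UMIs when all barcodes were counted. Clustered without an upper limit, 27 of these 51 barcodes were erythroid-like, 9 effector CD8 T-like, 7 macrophage/monocyte-like, 4 T-like, 3 germinal center B-like and 1 dendritic-like. Without the limit the log2 ratio of the summed members was 0.12 for the combination over anti-CD20 (0.07 to 0.16) and 0.31 for anti-CD27 over the isotype control. Whether these barcodes held 1 cell or more was not tested.

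Germinal center B-like cells expressed the members at a high and similar level in both libraries that had them. Their summed level was 14484 CPM in the isotype control (13654 to 15352) and 14279 CPM after anti-CD20 (13840 to 14728), a log2 ratio of -0.02 (-0.12 to 0.08). After thinning, 47.7% of 44 cells (32.5% to 63.3%) and 57.0% of 107 cells (47.1% to 66.5%) had UMIs of at least 2 members. Of 35 members tested, Kif20b was at least 2-fold higher after anti-CD20 and Plk1 at least 2-fold lower, with 10% and 6.24% of 5531 genes. The median log2 ratio was -0.23 against 0.00 for all genes. Top2a was higher after anti-CD20 (381 against 54 UMIs, log2 ratio 0.98, 0.56 to 1.42) and Tpx2 lower (68 against 36 UMIs, -0.92, -1.53 to -0.30), while Mki67 (0.07), Smc4 (-0.02) and Hmgb2 (0.12) were within counting error. Median depths were 1261 and 2272 UMIs per cell.

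Effector CD8 T-like cells expressed the members at a higher level after the combination than after anti-CD27. The summed level was 8078 CPM in 49 cells with anti-CD27 alone (7595 to 8583) and 11073 CPM in 44 cells with both antibodies (10505 to 11664), a log2 ratio of 0.46 (0.34 to 0.57). The 9 cells after anti-CD20 gave 4632 CPM (3459 to 6074), with 42.3% of the UMIs in 1 cell, and the single cell of the isotype control held 6 member UMIs, so no ratio was formed with them. Without the cell with the most member UMIs in each library the ratio of the combination over anti-CD27 was 0.41 (0.28 to 0.53). The share of cells with at least 2 members after thinning was 38.8% after anti-CD27 (25.2% to 53.8%) and 43.2% after the combination (28.4% to 59.0%), which overlap.

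Single members differed in how far they were higher with the combination in these cells. Of 32 members tested, 6 were at least 2-fold higher (Plk1, Ube2c, Cdc20, Cenpe, Cenpf and Dlgap5) and 1 at least 2-fold lower (Cks2), with 5.64% and 6.73% of 4520 genes, and the median log2 ratio was 0.41 against 0.01 for all genes. Cenpf had 42 UMIs in the combination and 11 after anti-CD27 (log2 ratio 1.94, 0.96 to 3.05). Cenpe had 64 and 24 UMIs (1.42, 0.73 to 2.16). Ube2c had 73 and 29 UMIs (1.34, 0.70 to 2.01), Cdc20 26 and 9 (1.54, 0.40 to 2.82) and Dlgap5 32 and 9 (1.84, 0.74 to 3.09). Plk1 had 16 and 6 UMIs, with a ratio of 1.42 whose interval reached 0. Intervals lay above 0 for 9 of the 32, which besides Cenpf, Cenpe, Ube2c, Cdc20 and Dlgap5 were Cenpa (64 and 32 UMIs), Hmmr (30 and 15), Top2a (146 and 85) and Smc4 (159 and 114), and below 0 for none. Cdk1 with 20 and 22 UMIs (-0.13, -1.08 to 0.81), Cks1b with 39 and 35 (0.16, -0.53 to 0.87) and Hmgb2 with 268 and 274 (-0.02, -0.27 to 0.22) were within counting error. A gene list of S phase was at 7830 CPM with anti-CD27 alone and 8511 CPM with both antibodies in the same cells, and median depth was 2035 and 2573 UMIs per cell.

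**Figure D3:**
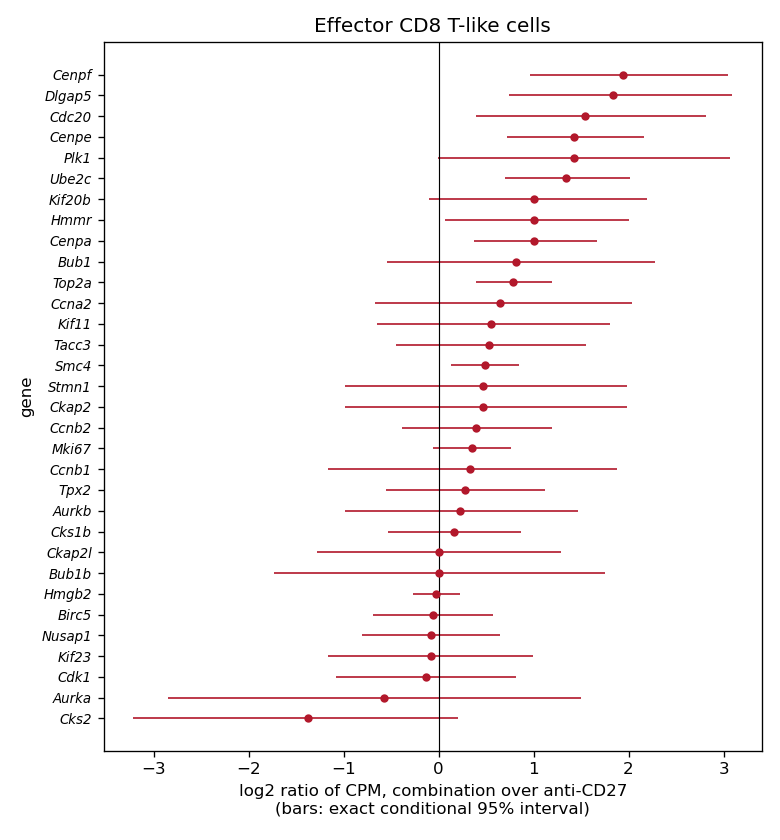
Log2 ratio of CPM, combination over anti-CD27, in effector CD8 T-like cells for the 32 members with at least 10 UMIs in the pair, with exact conditional 95% intervals as bars. Cenpf at 1.94 and Dlgap5 at 1.84 are highest, Hmgb2 and Cdk1 lie near 0, and Cks2 is lowest.

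Erythroid-like cells, led by the haemoglobin genes, had the highest summed level of any class with at least 10 cells in a library. It was 15894 CPM in 15 cells with anti-CD27 alone (14810 to 17036) and 17892 CPM in 16 cells with both antibodies (16730 to 19114), a log2 ratio of 0.17 (0.03 to 0.31) that was 0.00 as a mean over cells. In these libraries 1 cell held 23.3% and 26.1% of the class's member UMIs. The 3 cells of the isotype control gave 1018 CPM and the 6 cells after anti-CD20 gave 3359 CPM, too few for a ratio. Mki67 was at 2510 CPM with anti-CD27 alone and 2275 CPM with both antibodies. Of 29 members tested between these libraries none was at least 2-fold higher and 2, Ccna2 and Tacc3, at least 2-fold lower, with 12.1% and 10.3% of 1450 genes.

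A cluster of 66 cells was led by Mcpt8 and Prss34, which are basophil and mast cell proteases. It was left unnamed because it did not meet the naming rule for any class. Car1, a marker of the erythroid-like class, was among its top 10 genes. A UMI of Mcpt8, Prss34 or Cpa3 was found in 9 of its cells. Its summed member level was 6414 CPM in 3 cells of the isotype control, 8859 CPM in 13 cells after anti-CD20 (7914 to 9887), 7659 CPM in 20 cells with anti-CD27 alone (7013 to 8349) and 10176 CPM in 30 cells with both antibodies (9540 to 10842). The combination was above both single antibodies, with log2 ratios of 0.20 over anti-CD20 (0.02 to 0.39) and 0.41 over anti-CD27 (0.25 to 0.57), with 42.0% of its anti-CD20 member UMIs in a single cell. Over anti-CD27, 7 of 31 members tested were at least 2-fold higher (Aurka, Bub1b, Cenpe, Mki67, Kif23, Nusap1 and Hmmr) and 1 lower (Stmn1), with 11.7% and 10.1% of 3416 genes. Over anti-CD20, 3 of 27 were higher (Cdk1, Cks1b and Cenpa) and 2 lower (Ccnb1 and Cenpf), with 20.5% and 12.6% of 2935 genes. Several higher members reached 10 UMIs mainly through the combination, and neither count supports a difference. Examples were Aurka with 8 UMIs against 2 after anti-CD27 and Cdk1 with 21 against 3 after anti-CD20. Mki67 had 113 UMIs after the combination and 27 after anti-CD27 (log2 ratio 1.59, 0.97 to 2.25), whereas Top2a had 108 and 67 (0.21, -0.24 to 0.68) and Stmn1 3 and 12 (-2.48, -4.94 to -0.59). Against anti-CD20, Cenpf had 19 and 17 UMIs (-1.22, -2.24 to -0.19).

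Granulocyte-like cells split by maturity markers. Cells led by Camp, Ngp and Ltf, genes of secondary granules made in granulocyte precursors, had 7958 CPM in 24 cells with anti-CD27 alone (7377 to 8573) and 5422 CPM in 28 cells with both antibodies (4994 to 5878), a log2 ratio of -0.55 (-0.71 to -0.39). Of 25 members tested, 1 was at least 2-fold higher (Kif20b) and 9 at least 2-fold lower (Cdk1, Ccna2, Ccnb1, Cks1b, Cks2, Birc5, Kif11, Tacc3 and Ckap2l), with 8.34% and 10.9% of 2423 genes. Several of the lower members reached the minimum count mainly through anti-CD27, and neither count supports a difference. Examples were Ccna2 with 2 UMIs after the combination against 12 after anti-CD27 and Tacc3 with 4 against 9. The intervals of Kif20b, Ccnb1, Cks1b, Kif11, Tacc3 and Ckap2l included no difference. Those of Cdk1, Ccna2, Cks2 and Birc5 lay below it. Among tested members short of 2-fold, the intervals of Mki67, Top2a and Smc4 also lay below it and the others included it. Mki67 had 45 UMIs after the combination and 63 after anti-CD27 (log2 ratio -0.80, -1.39 to -0.23). Top2a had 44 and 62 (-0.81, -1.41 to -0.23) and Smc4 69 and 90 (-0.70, -1.18 to -0.23). Unlike the summed level, Hmgb2 was within counting error, with 198 and 150 UMIs (0.08, -0.23 to 0.40). A Cd3 gene, a T cell marker, was detected in 40% of the 60 cells of this cluster, and its part in the result was not tested.

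Cells led by Retnlg and Cxcr2, markers of mature neutrophils, which no longer divide, gave the background. Their level was 1263 CPM pooled over 78 cells, and 3.85% of them (0.80% to 10.8%) had UMIs of at least 2 members after thinning, at a median depth of 954 UMIs per cell. Of the 36 members 16 were detected there, led by Hmgb2 at 643 CPM and Mki67 at 135 CPM. The level was 1262 CPM (910 to 1706) with anti-CD27 alone and 1294 CPM (994 to 1655) with both antibodies, a log2 ratio of 0.04 (-0.55 to 0.63).

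Dendritic-like cells, led by Cst3, Naaa and Xcr1, had few of these transcripts without anti-CD27. The summed level was 1219 CPM in 12 cells of the isotype control (839 to 1712) and 1149 CPM in 11 cells after anti-CD20 (736 to 1709), which is near the level of mature neutrophils. It was 4855 CPM in 20 cells with anti-CD27 alone (4188 to 5599) and 10892 CPM in 26 cells with both antibodies (10069 to 11764). The log2 ratio was 1.99 for anti-CD27 over the isotype control (1.45 to 2.57) and 3.25 for the combination over anti-CD20 (2.66 to 3.90), and the latter was 3.33 without the cell with the most member UMIs in each library and 2.59 as a mean over cells. After anti-CD27, 1 cell held 43.9% of the UMIs. After thinning 1 of 12, 1 of 11, 4 of 20 and 10 of 26 cells had at least 2 members.

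In dendritic-like cells Mki67 had 3 UMIs in the isotype control, 0 after anti-CD20, 14 after anti-CD27 and 99 after the combination. With a floor of 3 counts for the anti-CD20 library it was at least 11.6-fold higher after the combination. Top2a had 1, 3, 14 and 95 UMIs, and Smc4 had 8, 12, 31 and 60. Of 15 members tested between the combination and anti-CD20, 14 were at least 2-fold higher and none lower, with 25.4% and 9.63% of 1651 genes, and most of the 15 reached 10 UMIs through the combination alone, so that they had to differ.

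T-like cells had low levels, and their comparison depended on how the cells were grouped. The summed level was 3679 CPM in 67 cells of the isotype control, with 53.6% of the UMIs in 1 cell, 1901 CPM in 170 cells after anti-CD20 (1715 to 2102), 3783 CPM in 100 cells with anti-CD27 alone (3444 to 4148) and 3699 CPM in 143 cells with both antibodies (3415 to 4000). The log2 ratio of the combination over anti-CD20 was 0.96 (0.77 to 1.15), and 7 of 15 members tested were at least 2-fold higher and none lower, with 5.76% and 5.78% of 5818 genes, a count in which several members reached 10 UMIs only through the combination. Mki67 had 106 and 10 UMIs (3.65, 2.71 to 4.75) and Cenpe 31 and 4 (3.19, 1.69 to 5.16), while Smc4 had 176 and 234 (-0.17, -0.46 to 0.12). UMIs of at least 5 different members were found in 10 of 143 cells after the combination and 0 of 170 after anti-CD20, which allows up to 3. At a clustering resolution of 2.0 the ratio in T-like cells was -0.25 (-0.54 to 0.04).

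B-like cells outside the germinal center class, led by Cr2, Ly6d and Fcer2a, also held some members. The summed level was 1290 CPM in 180 cells of the isotype control (1138 to 1457), 3252 CPM in 115 cells after anti-CD20 (3020 to 3496) and 2790 CPM in 194 cells after anti-CD27 (2589 to 3002). The cell with the most member UMIs held 20.3%, 26.8% and 20.9% of them. The log2 ratio was 1.33 for anti-CD20 over the isotype control (1.13 to 1.54), with 16 of 22 members tested at least 2-fold higher and none lower, beside 4.4% and 6.99% of 6227 genes. Many of the tested members reached 10 UMIs only through the higher library (for example Ccnb2 with 0 isotype control UMIs against 23) and so had to differ, here and for anti-CD27, and neither count supports a difference. For anti-CD27 over the isotype control it was 1.11 (0.91 to 1.32), which turned to -0.19 (-0.34 to -0.03) with cells classed singly by their own marker genes, with 16 of 25 members at least 2-fold higher and none lower, beside 4.69% and 6.0% of 6433 genes. UMIs of at least 5 different members were found in 6, 13 and 9 cells. The second ratio was 0.26 as a mean over cells, and with cell cycle genes among the variable genes the ratios were 0.51 and 0.25.

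Macrophage/monocyte-like cells had low levels that rested on single cells. Their level was 2560 CPM in 12 cells of the isotype control, 2728 CPM in 21 cells after anti-CD20, 1281 CPM in 41 cells with anti-CD27 alone and 2028 CPM in 85 cells with both antibodies, and 48.6%, 50.8%, 30.3% and 25.6% of these UMIs lay in 1 cell. The log2 ratio of the combination over anti-CD20 was -0.43 (-0.71 to -0.13), and 0.069 (-0.32 to 0.48) without that cell in each library. NK-like cells, led by Gzma and Ncr1, had 4131 CPM in 26 cells after anti-CD20 (3463 to 4889) and 3499 CPM in 12 cells after the combination (2827 to 4282), with 60% and 52.1% in 1 cell. A cluster of 25 cells led by immunoglobulin genes such as Ighg2c had 2372 CPM.

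**Figure D4:**
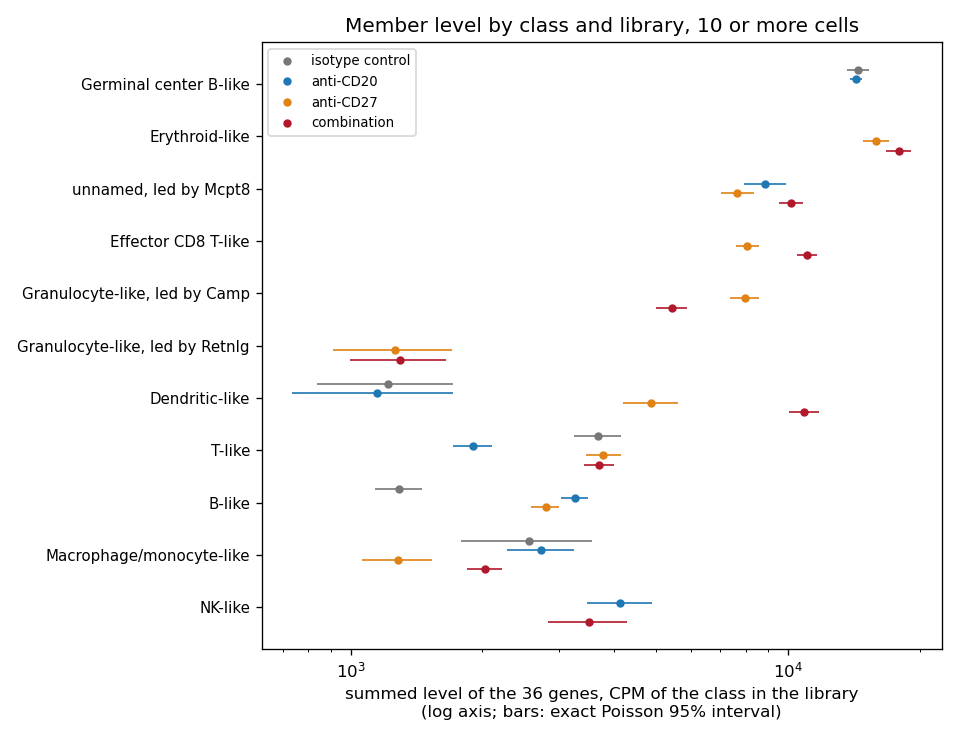
Summed level of the 36 genes in CPM (log axis) for each class or cluster with at least 10 cells in a library, coloured by library, with exact Poisson 95% intervals as bars. Germinal center B-like and erythroid-like cells lie at 14279 CPM or higher, Retnlg-led granulocyte-like cells near 1263 CPM, and dendritic-like cells run from 1149 CPM after anti-CD20 to 10892 CPM after the combination.

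The members were not equally bound to dividing classes. Smc4 was at 991 CPM in the T-like cluster led by Cd8b1, where the 36 members together reached 1517 CPM and 18 of them were not detected, and at 1565 CPM in germinal center B-like cells. Hmgb2 was at 155 CPM in the Cd8b1-led cluster and at 2719 CPM in germinal center B-like cells. Mki67 was at 43.1 and 1912 CPM and Top2a at 34.5 and 1207 CPM in the same pair. Smc4 UMIs were found in 43.2% of all cells and Hmgb2 UMIs in 36.7%, against 20.7% for Mki67, 18.6% for Top2a and 13.2% or less for every other member.

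The dividing classes also used the members in different proportions. Cenpe was at 955 CPM in germinal center B-like cells, 340 CPM in effector CD8 T-like cells and 339 CPM in erythroid-like cells. Kif23 was at 350, 122 and 86.7 CPM and Cdc20 at 269, 137 and 134 CPM in the same order. Ube2c ran the other way, at 216, 377 and 654 CPM, and Birc5 was at 311, 337 and 804 CPM. Cenpe, Kif23, Ube2c, Birc5 and Top2a were the members whose whole-library ratios excluded no difference, in the same direction, in both comparisons that add anti-CD27. Top2a, higher in both, was at 1207 CPM in germinal center B-like cells. It was at 658 CPM with anti-CD27 alone and 1137 CPM with both antibodies in effector CD8 T-like cells, and at 1135 and 1747 CPM in erythroid-like cells. All but 1 of the germinal center B-like cells came from the isotype control and anti-CD20 libraries. Most effector CD8 T-like cells (1, 9, 49 and 44 in the 4 libraries) and erythroid-like cells (3, 6, 15 and 16) came from the libraries with anti-CD27. Class and library therefore overlap strongly and were not separated in these values.

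**Figure D5:**
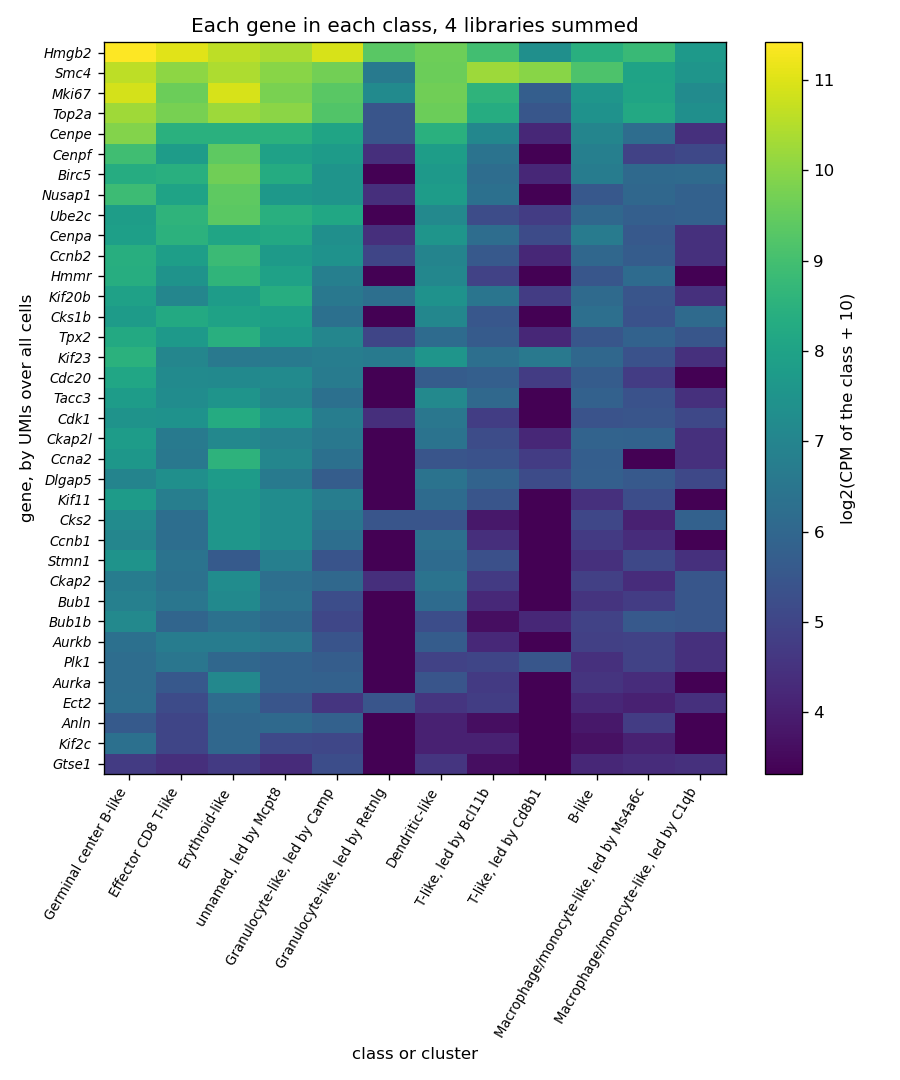
Level of each of the 36 genes (rows, by UMIs over all cells) in 12 classes or clusters (columns) with the 4 libraries summed, as log2 of CPM plus 10. Smc4 stays bright in the T-like cluster led by Cd8b1 where nearly all other rows are dark, and Cenpe is brightest in germinal center B-like cells.

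Cells with UMIs of at least 5 different members numbered 296, of which 31 were in the isotype control, 86 after anti-CD20, 82 after anti-CD27 and 97 after the combination, or 9.12%, 17.2%, 16.5% and 22.5% of the cells. Among these 296 cells Hmgb2 was detected in 93.9%, Smc4 in 88.5%, Mki67 in 82.1% and Top2a in 78.0%, and Kif2c in 13.5% and Gtse1 in 7.43%. They were compared with cells of the same cluster that had no member UMI, in the 5 clusters with at least 10 cells of each kind. Cells with many members were deeper, for example with medians of 3077 and 790 UMIs in germinal center B-like cells, and choosing cells by member UMIs favors deep cells.

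The genes outside the list that were most concentrated in such cells, by the median over the 5 clusters of the log2 ratio of CPM, were 2810417H13Rik (5.14), Lig1 (4.94), Kif15 (4.90), Rrm2 (4.83), Clspn (4.61), Ncapg (4.57), Nuf2 (4.43), Ndc80 (4.35), Spc25 (4.26), Mad2l1 (4.11), Sgol2 (4.11) and Hist1h1b (4.06), each with a ratio above 0 in all 5. Of these 12, 6 were on a list of other mitosis genes, such as the kinetochore genes Nuf2, Ndc80 and Spc25, and 3 on a list of S phase genes, such as the DNA ligase Lig1. Of 40 S phase genes measured in this way 34 had a median above 1, as had 30 of 31 other mitosis genes and 420 of 3455 genes in all (12.2%). Among 11 genes that restrain the cycle or mark rest, 4 had a median below -1: Txnip (-1.58), Btg1 (-1.25), Btg2 (-1.23) and Rbl2 (-1.14). Cdkn2d (2.47) and Rbl1 (1.20), which also restrain the cycle, were higher. These are descriptions of cells chosen by their transcripts, with no test.

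The other cycle genes were compared between whole libraries by the same 2-fold rule, and their counts stand beside 6.39% higher and 4.62% lower of all genes for the combination over anti-CD20, and 4.97% and 3.58% for anti-CD27 over the isotype control. Of 46 other mitosis genes tested, none passed 2-fold between the combination and anti-CD20 (median -0.08), and of 45 between anti-CD27 and the isotype control Cdca8 was higher and Arhgap11a lower (median 0.02). The 4 with the most UMIs were Smc2, Incenp, Tubb4b and Hjurp. Smc2, the partner of Smc4 in condensin, was at 163, 266, 283 and 356 CPM (isotype control first, then the single antibodies, then both), with a log2 ratio of 0.42 for the combination over anti-CD20 (0.18 to 0.67) and 0.79 for anti-CD27 over the isotype control (0.41 to 1.19). Incenp, of the passenger complex, had ratios of -0.16 and -0.57, Tubb4b, a tubulin, -0.05 and -0.11, and Hjurp, which loads Cenpa, -0.08 and 0.12.

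Of the S phase genes, none of 58 tested was at least 2-fold higher in the combination than after anti-CD20 (median -0.06), and 3, Rfc1 and Rfc3 among them, were at least 2-fold lower. In all, 4 of 57 tested, Orc1, Rfc5, Tyms and Uhrf1, were at least 2-fold higher after anti-CD27 than in the isotype control (median 0.29). The 4 with the most UMIs were Pcna (log2 ratios 0.22 and 0.61 in these comparisons), Rfc1 (-1.15 and -0.54), Dut (0.00 and 0.06) and Lig1 (0.10 and 0.57). Of the inhibitors and quiescence genes, Cdkn1a was higher and Foxo1 and Foxp1 lower among 19 tested in the first comparison (median -0.25), and Cdkn1a and Foxo3 were higher and Cdkn1b, Foxo1 and Klf2 lower among 17 in the second (median -0.29). Those with the most UMIs were Btg1 (-0.74 and -0.73), Foxp1 (-1.83 and -0.84), Klf2 (-0.26 and -1.47) and Btg2 (-0.29 and -0.16).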

How the data were processed

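Drop-seq libraries were made from spleen cells, 1 per treatment. The authors filtered reads on barcode quality, trimmed them, aligned them to mm10 with STAR 2.5.0a and collapsed them to UMIs. The authors deposited these as raw counts, neither filtered nor scaled, for 17252 genes in 799 to 800 barcodes per library, with 1 column per barcode whose prefix names the library. All values here were computed from these counts.

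Barcodes with 300 to 3000 genes were kept. Log values of counts per 10000 UMIs of a cell were clustered by the Leiden method (leidenalg 0.10.2, resolution 1.0) on 2000 variable genes, none of them a cell cycle gene, with 30 principal components and 15 neighbours, which gave 14 clusters. A cluster took the class with the most markers among its top 30 genes by fold, with at least 3 markers there and 2 in the top 10. NK-like clusters also needed Cd3 genes in fewer than 30% of their cells, and effector CD8 T-like clusters needed Cd8 genes in 20% or more. These limits were chosen with the clusters in view. No barcodes were removed as doublets. Scrublet called 16 of 1770 (0.904%), and 37 barcodes were 1 base from a deeper one.

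Levels are UMIs summed over cells per 1000000 (CPM). Ratios need at least 10 cells of a class in both libraries, fold counts use a pseudocount of 10 CPM and at least 10 UMIs in the pair, and a count of 0 has a floor of 3 counts. Ratios with their intervals were checked on simulated counts. Each gene's library sum was drawn as an independent Poisson count, which the intervals themselves assume. Clumping of UMIs in single cells was not simulated, so the simulated counts are not error rates for these data. In the simulated pair of the combination and anti-CD20 libraries (10357 genes), a true 2-fold change gave an interval on the correct side of no change in 34 of 63 genes, a 4-fold change in 54 of 59 and an 8-fold change in 78 of 78. For anti-CD27 and the isotype control (9562 genes) it was 38 of 69 genes at 2-fold, 52 of 59 at 4-fold and 66 of 68 at 8-fold. Of genes simulated without a change, 7 of 10157 passed 2-fold in the first pair and 63 of 9366 in the second. Cell classes were not simulated.

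The members and lists were chosen with earlier results of these data known. Some genes outside the members are not reported here. Named genes are all members by role, the 4 genes with the most UMIs and those past 2-fold in each other list, and the 12 genes with at least 50 UMIs most concentrated in cells with at least 5 members. Alternatives were other gene limits, removal of doublets or near barcodes, means over cells, TMM factors from edgeR 4.0.16, other totals, pseudocounts, minimum counts and thinning depths, members without Hmgb2 and Stmn1, and other clusterings. Removing the cell with the most member UMIs was added after seeing the data. Python 3.11.15, scanpy 1.11.5, scipy 1.17.1 and R 4.3.3 were used.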

Additional observations from a re-analysis of the deposited data

Results flagged for a closer look

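Barcodes outside the limits on detected genes were not used in the comparisons, and 3 of their member levels were above the isotype control beyond counting error. Among barcodes with over 3000 genes, the 5 of the anti-CD20 library had 18240 CPM of the 36 members (17255 to 19267), against 11257 CPM in the 2 of the isotype control (10328 to 12246), 12346 CPM in the 14 after anti-CD27 and 10794 CPM in the 30 after the combination. Clustered without an upper limit, 3 of the 5 anti-CD20 barcodes were germinal center B-like and the other two erythroid-like. Among barcodes with under 300 genes, the member level was 1269 CPM in the isotype control (1095 to 1464), 937 CPM with anti-CD20 alone, 1815 CPM with anti-CD27 alone (1603 to 2047) and 2271 CPM after the combination (2062 to 2494). UMIs of at least 5 different members were found in 0, 3, 13 and 12 of these 457, 294, 288 and 338 barcodes.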

How the results depend on the processing

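Of 230 values under the alternatives, 167 stayed within the 95% interval or within 1.5 times of the reported value, 57 lay outside it, and 6 changed sign where that interval excluded no difference. The cause was not tested. No paired analysis was possible because each treatment was 1 library and no test was made.
Without an upper limit on genes the log2 ratios were 0.12 (combination over anti-CD20) and 0.31 (anti-CD27 over isotype control) for whole libraries, 0.086 in germinal center B-like cells, 1.61 in T-like cells and 0.33 in effector CD8 T-like cells, whose share of the combination's member UMIs was 21.8%. With at least 500 genes they were -0.14, 1.20 and 0.29 in these classes, with shares of 69.5% (germinal center B-like, anti-CD20) and 22.9%. As means over cells they were 0.27 (anti-CD27 over isotype control) and 0.73 (T-like), and with TMM factors 0.069 and 0.35 for whole libraries. A pseudocount of 50 CPM left 1 member past 2-fold after anti-CD27. Without Hmgb2 and Stmn1 the effector CD8 ratio was 0.59. At resolution 0.5 the T-like ratio was 1.18 and the effector CD8 share 22.2%, and at 2.0 the T-like ratio was -0.25. With cycle genes among the variable genes the ratios were 0.11 (germinal center B-like) and 0.39 (T-like) and the shares 76.2% and 28.9%. With cells classed singly by their own marker genes the ratios were 1.30 (T-like) and 0.75 (effector CD8), and the shares 13.1% and 10.3%. Without thinning anti-CD27 exceeded the isotype control by 9.81 points.
The other reversals were 5. The macrophage/monocyte-like ratio of the combination over anti-CD20 was 0.52 without the upper limit, 0.12 as a mean over cells, 0.14 at resolution 2.0 and 0.069 without the cell with the most member UMIs, and the B-like ratio of anti-CD27 over the isotype control was -0.19 with cells classed singly. At resolution 2.0 and with cells classed singly enough anti-CD20 cells were effector CD8 T-like for a ratio of the combination over them, 1.41 (1.04 to 1.81) and 1.92 (1.45 to 2.42). Depth limits single members most in the isotype control, which had 440710 UMIs.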
